A study of Homo sapiens with 12 samples.

Results

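The genes described here were the WNT signalling genes listed in both deposited count tables. They comprised every symbol of the WNT ligands, the Frizzled receptors, the SFRP antagonists numbered 1 to 5 and the DKK antagonists numbered 1 to 4. To these were added the co-receptors LRP5, LRP6, ROR1 and ROR2, the receptor turnover genes LGR4, LGR5, RNF43 and ZNRF3, the secreted antagonist NOTUM, and AXIN1, AXIN2, CTNNB1, LEF1, TCF7 and NKD1. The choice by symbol gave 52 genes of 27064 symbols, namely 19 ligands, 10 Frizzled receptors, 4 co-receptors, 4 receptor turnover genes, 9 antagonists and 6 genes of the group of beta-catenin, AXIN and targets. The rule uses symbols and no measured value, but it was set with earlier results of these data known.

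WNT proteins are secreted ligands that bind Frizzled receptors. With the co-receptors LRP5 or LRP6, a bound Frizzled blocks the AXIN-based complex that destroys beta-catenin (CTNNB1), and beta-catenin then activates genes through TCF and LEF factors, several of which (AXIN2, NKD1, LEF1, TCF7, NOTUM, RNF43, ZNRF3, LGR5) act back on the pathway. Other WNT proteins, such as WNT5A and WNT5B, act mainly without beta-catenin through ROR1 and ROR2. YAP and TAZ, whose DNA-binding partners are the TEAD factors, are known to be tied to WNT signalling at several levels.

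Per the labels, the data were 12 poly(A) RNA libraries of 2 human cancer cell lines described by the submitters as NF2-deficient, namely ACHN, from a kidney cancer, and NCI-H226, from a mesothelioma and called H226 below. Cells in culture plates received 100 nM SWTX-143, an irreversible inhibitor of TEAD, or DMSO, and were left overnight, giving 4 groups of 3 libraries, namely H226 with SWTX-143, H226 with DMSO, ACHN with SWTX-143 and ACHN with DMSO. The question was what the inhibitor did to the transcripts of each line. Each line stands for 1 culture model of its tumour type, and the labels do not tell if replicates were cultured apart, so p-values measure the spread between these libraries, which may be technical.

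Each library held 9690980 to 11262663 counts. Values are given as CPM, counts scaled by library size with joint TMM factors for the 12 libraries, and a gene was called where its Benjamini-Hochberg adjusted p in edgeR's quasi-likelihood test was under 0.05 over all tested genes of the line. Known TEAD targets were lower with SWTX-143 in both lines, with log2 fold changes of -2.53 in H226 and -2.39 in ACHN for CTGF, and of -1.41 and -1.28 for CYR61. The labelled lines carried most of their markers, with exceptions given below. MSLN (227 CPM with SWTX-143 and 198 CPM with DMSO), CALB2 and WT1 were present in H226, and PAX8 (405 and 392 CPM) and PAX2 in ACHN, while the kidney marker EMX2 was at 0 in every group. NF2 averaged 0.03 CPM with SWTX-143 and 0 with DMSO in H226, against 94.9 and 112 CPM in ACHN, so its RNA was present in ACHN. Summed mesothelial markers in H226 were 4375 to 4636 CPM with SWTX-143 and 3816 to 3976 CPM with DMSO. Summed kidney markers in ACHN were 811 to 856 CPM and 778 to 805 CPM. In the other line, mesothelial markers summed to 190 to 197 CPM and 224 to 227 CPM in ACHN. There LRRN4 (149 and 177 CPM) and TBX18 (37.4 and 38.3 CPM) made up most of the sum. Kidney markers summed to 19.1 to 21.0 CPM and 12.9 to 14.7 CPM in H226, mostly LHX1 (14.9 and 8.05 CPM). GATA3 of the kidney list was higher in H226 (2.82 and 4.46 CPM) than in ACHN (0.208 and 0.299 CPM). Of 5 endothelial markers, KDR alone passed 1 CPM in H226, and the sum was 150.3 to 165 CPM with SWTX-143 and 218 to 229 CPM with DMSO. CD68 made up most of the 5-gene immune sum in ACHN (56.5 to 65.5 CPM with SWTX-143 and 42.7 to 45.4 CPM with DMSO), and PTPRC, which defines blood cells, was at 0 in every group. The part of these shifts in the results below was not tested.

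The first comparison concerned which ligands and receptors each line carried. H226 carried a broad set of WNT ligands and ACHN a narrow one. At a mean of 1 CPM or more there were 10 ligands in H226 with SWTX-143 and 9 in H226 with DMSO, against 3 in ACHN with SWTX-143 and 4 in ACHN with DMSO. In all, 14 members stayed under 1 CPM in every group, among them WNT1, WNT3A, WNT8A and LGR5, and FZD10, SFRP2 and WNT9B had no count in any library. A count of 0 over the 3 libraries of a group allows a level of up to 0.0885 to 0.0994 CPM, by counting error only.

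To compare genes with each other, CPM was divided by the length of the gene's annotated exons in kilobases, a scale on which a gene with a shorter main transcript than the annotation's sum is understated. On it, WNT10A was the most abundant ligand of H226, at 36.2 ± 0.69 CPM per kb with SWTX-143 and 20.6 ± 0.35 CPM per kb with DMSO (SD, n = 3 each). It was followed by WNT5A at 14.5 ± 0.07 and 18.4 ± 0.59 CPM per kb and by WNT3 at 10.97 ± 0.94 and 13.6 ± 0.57 CPM per kb. These 3 ligands stood apart from each other in both groups, whereas under DMSO the next ones, WNT2B (7.13 ± 0.44 CPM per kb), WNT5B (6.71 ± 0.39) and WNT4 (6.55 ± 0.47), did not differ beyond their spread. This order rests on the lengths, which are 12439 bases for WNT2B and 2547 bases for WNT10A. In CPM, WNT2B (109 with SWTX-143 and 88.7 with DMSO) was above WNT10A (92.2 and 52.5), and WNT5A was at 92.3 and 117. In ACHN, WNT5B held most of the ligand transcripts, at 11.6 ± 0.67 CPM per kb with SWTX-143 and 14.7 ± 0.26 CPM per kb with DMSO, followed by WNT3 at 6.09 ± 0.68 and 6.66 ± 0.08 CPM per kb. Summed over the ligands, the level was 88.4 ± 2.1 CPM per kb in H226 with SWTX-143 and 80.6 ± 0.23 CPM per kb in H226 with DMSO, and 19.3 ± 1.2 CPM per kb in ACHN with SWTX-143 and 23.2 ± 0.29 CPM per kb in ACHN with DMSO.

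**Figure D1:**
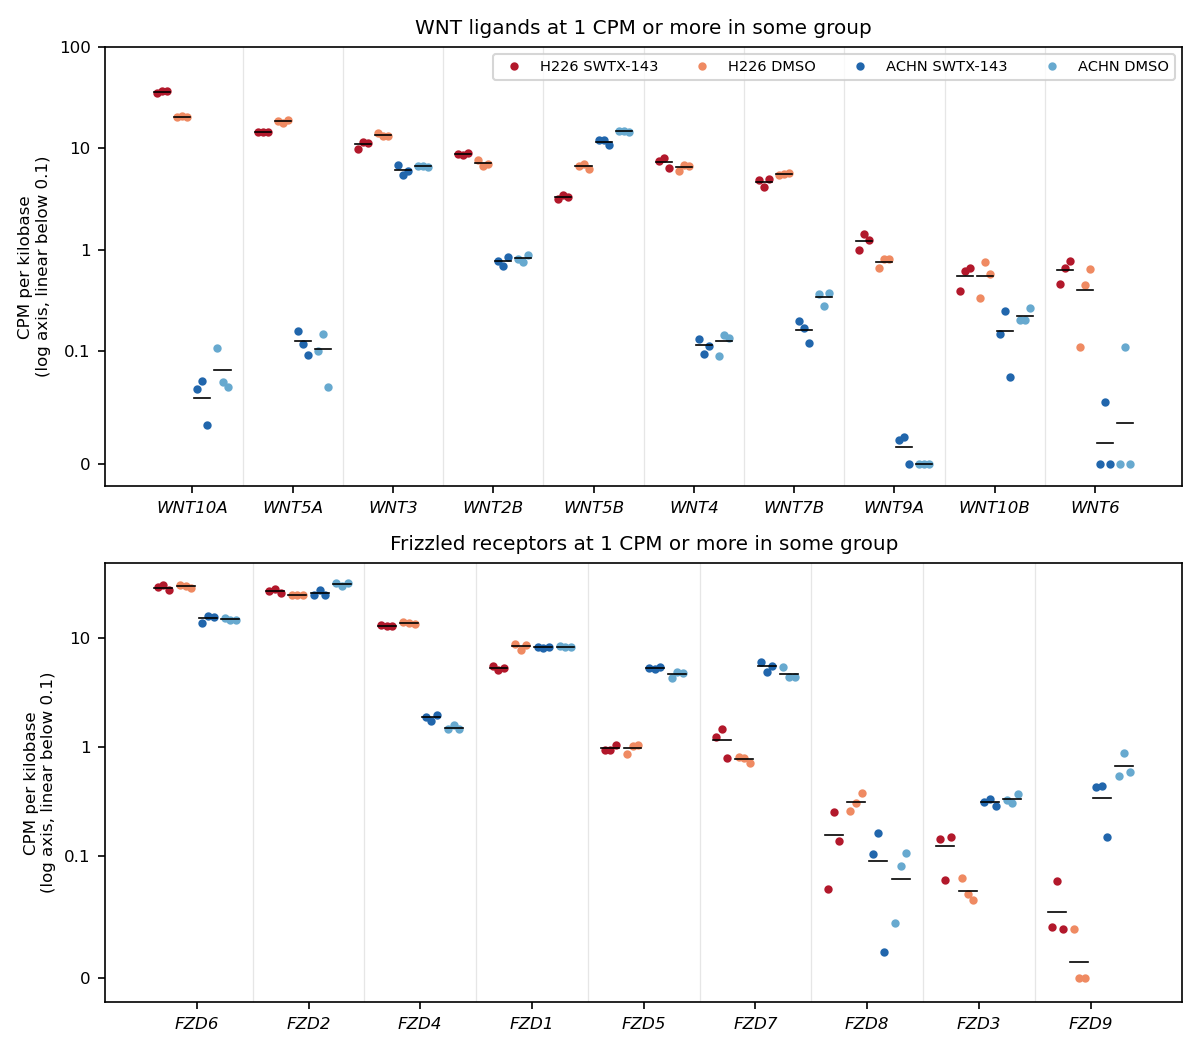
Levels in CPM per kilobase (log axis, linear below 0.1) of the WNT ligands (top) and Frizzled receptors (bottom) that reached 1 CPM in some group. Each point is 1 library and each bar a group mean of 3 libraries. WNT10A, WNT5A, WNT4 and WNT9A are set apart by line, and WNT5B is higher in ACHN.

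The Frizzled receptors were shared more evenly. FZD6 (28.6 ± 1.6 CPM per kb with SWTX-143 and 29.6 ± 0.93 with DMSO) and FZD2 (26.7 ± 0.99 and 24.5 ± 0.14) led in H226, followed by FZD4 (12.8 ± 0.12 and 13.7 ± 0.27). In ACHN, FZD2 led at 25.6 ± 1.7 CPM per kb with SWTX-143 and 30.9 ± 1.2 CPM per kb with DMSO, ahead of FZD6 (14.97 ± 1.2 and 14.7 ± 0.32) and FZD1 (8.21 ± 0.09 and 8.26 ± 0.07). Among antagonists, H226 carried DKK1, which blocks LRP5 and LRP6, at 14.0 ± 0.73 CPM per kb with SWTX-143 and 20.5 ± 1.7 CPM per kb with DMSO. ACHN carried DKK3, a divergent DKK family member, at 51.6 ± 2.5 CPM per kb with SWTX-143 and 55.9 ± 0.84 CPM per kb with DMSO. SFRP4, a secreted decoy that binds WNT proteins, reached 2.28 ± 0.15 CPM per kb with SWTX-143 and 2.01 ± 0.27 CPM per kb with DMSO in ACHN.

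Under DMSO, 36 of the 37 members tested in a joint fit of both lines differed between H226 and ACHN, 23 of them higher in H226 and 13 lower. Over all 14664 genes 84.4% were called, 42.2% in each direction, so a difference between the lines is the rule for any gene. The joint filter also keeps a gene that has enough counts in 1 line alone, which largely sets its direction. With each line fitted alone, 35 members passed the filter in H226 and 24 in ACHN, so the split was not independent of the filter. WNT10A was at 52.5, 53.3 and 51.5 CPM in H226 with DMSO, against 0.275, 0.186 and 0.174 CPM in ACHN with DMSO. WNT5A was at 117 ± 3.8 CPM in H226 and 0.668 ± 0.25 CPM in ACHN, a log2 difference of 7.44 ± 0.12 (SE). WNT9A held 91 counts in H226 and none in ACHN, and its level was at least 33.5-fold higher in H226 against a floor of 3 counts over the group. ROR2 was at 31.7 ± 1.1 CPM in H226 and 0.177 ± 0.15 CPM in ACHN, and DKK1 at 36.6 ± 3.05 CPM in H226, against 3 counts in all over the ACHN libraries with DMSO.

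Of 10 ligands tested, 9 were higher in H226 and 1, WNT5B, was lower, with a log2 difference of -1.13 ± 0.08. WNT10A, WNT10B, WNT4, WNT5A, WNT6 and WNT9A did not pass the filter in ACHN fitted alone. They entered through their counts in H226, so their direction was largely set by the filter. Of the 4 ligands that passed in each line, WNT2B, WNT3 and WNT7B were higher in H226 and WNT5B was lower. WNT2B (3.11 ± 0.08) and WNT3 (1.03 ± 0.08) were among those higher, as were FZD4 (3.19 ± 0.07), FZD6 (1.01 ± 0.05) and NOTUM (3.62 ± 0.34). The opposite-strand genes that overlap FZD4 and WNT2B also differed between the lines. PRSS23 over FZD4 averaged 27176.7 counts per library in H226 and 1671.2 in ACHN, and ST7L over WNT2B averaged 1638.5 and 211.0 counts. Reads of each pair cannot be told apart without a stated strand setting. DKK3 (-4.86 ± 0.08), SFRP4 (-3.87 ± 0.30) and FZD2 (-0.34 ± 0.06) were lower in H226. FZD1 was the 1 member not called, at 58.1 ± 3.6 CPM in H226 and 57.5 ± 0.50 CPM in ACHN, and its sign turned with library size scaling alone (log2 difference -0.15), which moved the median of all genes to -0.16. Line and the handling of each line's table cannot be told apart.

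The second comparison asked which members SWTX-143 changed in H226. Transcripts of WNT5B, ROR1, FZD1 and DKK1 fell, WNT5A fell less, and WNT10A, NOTUM and AXIN2 rose. Of the 52 members 35 passed the filter on low counts, and 16 of these were called, 6 higher and 10 lower. That is 45.7% of the tested members, where 40.7% of all 13484 tested genes were called, 19.0% of them higher and 21.6% lower, so the number of changed members was near what the whole table gave. The median log2 fold change of the tested members was 0.00, and that of all genes was also 0.00. In RNA from whole wells, fewer cells that express a gene and less of its RNA per cell cannot be told apart.

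Among the ligands 3 rose and 4 fell of 10 tested (70%, against 40.7% of all genes). WNT10A, a ligand of beta-catenin signalling in epithelia, was at 90.1, 93.2 and 93.2 CPM with SWTX-143, against 52.5, 53.3 and 51.5 CPM with DMSO. All treated libraries were far above all controls, and the log2 fold change was 0.80 ± 0.05 (SE; adjusted p = 2.77e-18). As a share of the summed ligand level per length, WNT10A made up 40.9% ± 0.20 with SWTX-143 and 25.5% ± 0.40 with DMSO (SD, n = 3 each). WNT2B, another ligand of the beta-catenin branch, was at 109, 107 and 113 CPM with SWTX-143, against 94.7, 84.3 and 87.0 CPM with DMSO (0.29 ± 0.05; adjusted p = 6.38e-06). WNT2B overlaps ST7L on the opposite strand, which was itself higher (0.30 ± 0.05), and without a stated strand setting their reads cannot be told apart. WNT9A was at 3.95, 5.67 and 4.97 CPM with SWTX-143, against 2.64, 3.24 and 3.19 CPM with DMSO (0.68 ± 0.20; adjusted p = 0.0039), and DESeq2 did not call it (adjusted p = 0.0599).

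WNT5B fell the most of the called ligands. Its level was 8.20, 9.02 and 8.62 CPM with SWTX-143, against 17.5, 18.2 and 16.2 CPM with DMSO, which is 2.02-fold lower (log2 -1.01 ± 0.11; adjusted p = 6.45e-11), with no overlap of the groups. Its share of the ligand level was 3.78% ± 0.10 with SWTX-143 and 8.32% ± 0.47 with DMSO. WNT5A, its close paralogue, was at 92.7, 92.5 and 91.8 CPM with SWTX-143, against 119, 113 and 119.7 CPM with DMSO (-0.35 ± 0.05; adjusted p = 5.45e-08), and those groups did not overlap either. WNT3, a ligand of the beta-catenin branch, was at 33.2, 39.0 and 38.2 CPM with SWTX-143, against 47.9, 44.6 and 44.5 CPM with DMSO (-0.32 ± 0.07; adjusted p = 0.0001245). WNT7B was at 24.5, 21.2 and 25.4 CPM with SWTX-143, against 27.9, 28.5 and 28.6 CPM with DMSO (-0.27 ± 0.08; adjusted p = 0.00679). That last call ended without SWTX-143 replicate 2 (adjusted p = 0.0949) and with DESeq2 (0.0733). WNT4, WNT6 and WNT10B were tested and not called.

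**Figure D2:**
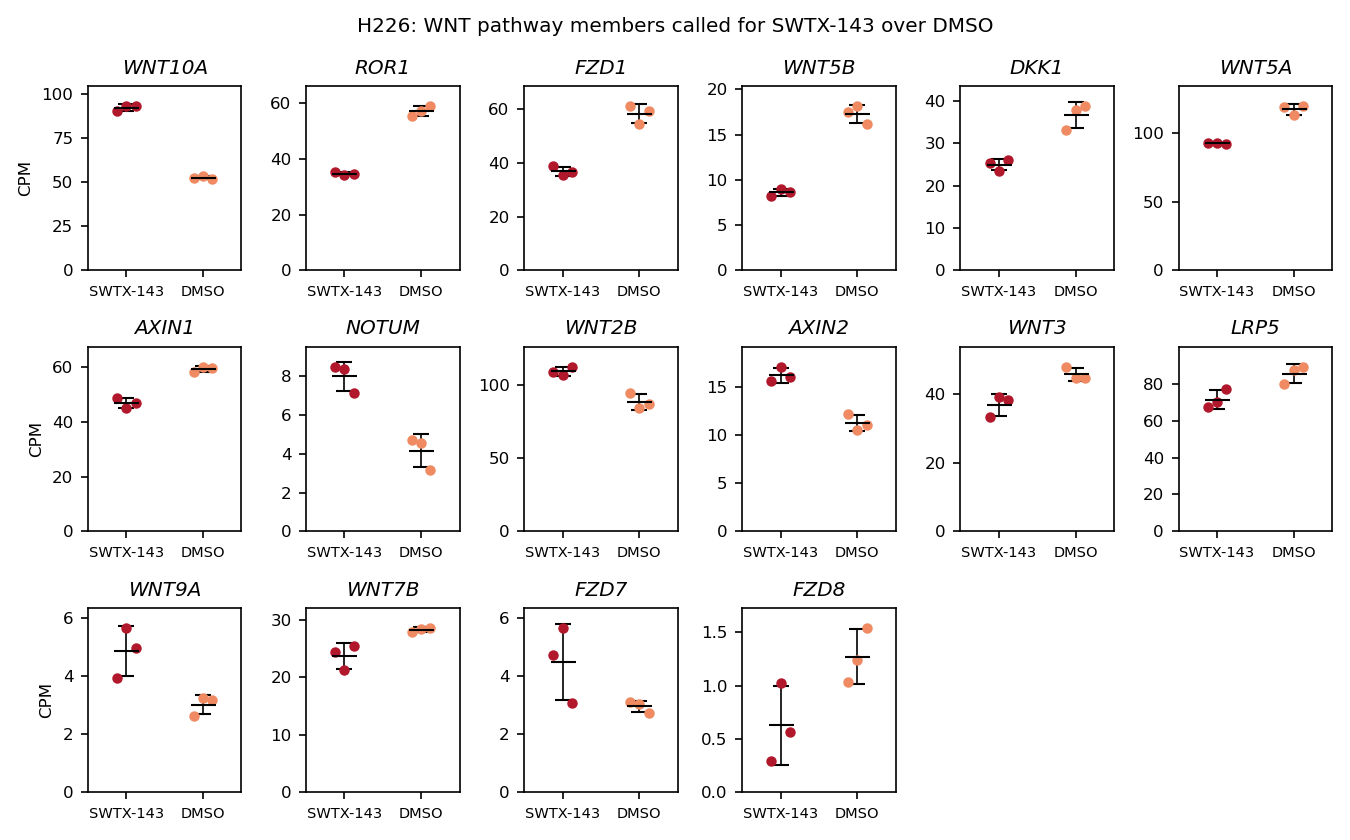
Level in CPM, on axes from 0, of the 16 members called in H226, with SWTX-143 on the left and DMSO on the right of each panel. Points are libraries, and lines are the mean with SD of 3 libraries. The groups are set apart for WNT10A, ROR1, FZD1 and WNT5B and overlap for FZD7.

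Of the receptors, FZD1 had the clearest change among the Frizzled genes. FZD1 was at 38.6, 35.3 and 36.6 CPM with SWTX-143, against 61.1, 54.2 and 59.0 CPM with DMSO, a 1.59-fold lower level with no overlap (log2 -0.67 ± 0.06; adjusted p = 1.03e-12). FZD7 was at 4.74, 5.67 and 3.09 CPM with SWTX-143, against 3.12, 3.05 and 2.75 CPM with DMSO (0.58 ± 0.21; adjusted p = 0.0206). SWTX-143 replicate 3 lay within the range of the controls, and leaving out SWTX-143 replicate 1 (adjusted p = 0.0671), SWTX-143 replicate 2 (0.218; log2 0.38) or DMSO replicate 3 (0.0669) ended the call, as did DESeq2 (0.143). FZD8 rested on few reads, 0.296, 1.02 and 0.562 CPM with SWTX-143 and 1.04, 1.24 and 1.54 CPM with DMSO (-0.99 ± 0.41; adjusted p = 0.0458). Its call ended without SWTX-143 replicate 1 (0.234; log2 -0.67) or 3 (0.0993) and without DMSO replicate 2 (0.0849) or 3 (0.163), and the log2 fold change was -1.52 without SWTX-143 replicate 2. It also ended with DESeq2 (0.216), and with upper-quartile scaling, library size alone, no filter and the joint fit (0.0549 to 0.0583). The most abundant Frizzled genes, FZD2, FZD4 and FZD6, had log2 fold changes of 0.12 ± 0.06, -0.10 ± 0.05 and -0.06 ± 0.05 and were not called.

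Of the 4 co-receptors 2 fell (50%), where 21.6% of all tested genes were called lower. ROR1, a receptor tyrosine kinase-like protein that binds WNT5A, was at 35.4, 34.0 and 34.7 CPM with SWTX-143, against 55.5, 57.0 and 59.0 CPM with DMSO. That is a 1.66-fold lower level with no overlap (log2 -0.73 ± 0.06; adjusted p = 2.78e-14). LRP5 was at 67.1, 69.8 and 76.9 CPM with SWTX-143, against 79.7, 87.3 and 89.1 CPM with DMSO (-0.27 ± 0.06; adjusted p = 0.000131). ROR2, the paralogue of ROR1, was at 29.3 ± 3.8 CPM with SWTX-143 and 31.7 ± 1.1 CPM with DMSO (-0.12 ± 0.08) and was not called. LRP6 was not called either (-0.18 ± 0.13), at 25.5, 26.3 and 36.0 CPM with SWTX-143, against 34.9, 30.5 and 33.6 CPM with DMSO. SWTX-143 replicate 3 stood apart from the other treated libraries for LRP6, and transcripts over 8 kb had a median log2 difference from DMSO of 0.09 in replicate 3, against 0.02 in replicate 1 and -0.03 in replicate 2. Its part in the LRP6 value was not tested.

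Of the antagonists, DKK1 fell and NOTUM rose. DKK1 was at 25.4, 23.5 and 26.1 CPM with SWTX-143, against 33.1, 37.8 and 38.9 CPM with DMSO (-0.56 ± 0.08; adjusted p = 3.02e-08), and the groups did not overlap. NOTUM, a secreted enzyme that removes the lipid from WNT proteins, was at 8.50, 8.37 and 7.12 CPM with SWTX-143, against 4.72, 4.57 and 3.19 CPM with DMSO. All treated libraries lay above all controls, and the log2 fold change was 0.92 ± 0.16 (adjusted p = 5.67e-06). DKK3 (0.21 ± 0.15) and SFRP1 (0.03 ± 0.19) were tested and not called.

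Of the genes that report on beta-catenin signalling, AXIN2 and NOTUM rose, and the other 5 tested were not called. AXIN2, a widely used reporter of the pathway, was at 15.6, 17.1 and 16.0 CPM with SWTX-143, against 12.2, 10.6 and 11.01 CPM with DMSO (0.52 ± 0.11; adjusted p = 7.77e-05). AXIN1, the scaffold of the destruction complex, is not one of these feedback targets. It was at 48.9, 45.2 and 47.0 CPM with SWTX-143, against 58.1, 60.2 and 59.8 CPM with DMSO (-0.35 ± 0.06; adjusted p = 4.14e-06). Of the 7 feedback targets tested, AXIN2 and NOTUM were called, both higher, where 40.7% of all tested genes of H226 were called. The other 5 were not called. RNF43, a ligase that removes Frizzled receptors, was at 2.17, 1.58 and 1.69 CPM with SWTX-143, against 1.13, 1.43 and 0.991 CPM with DMSO (0.59 ± 0.31; adjusted p = 0.128). It overlaps the far more abundant SUPT4H1 and TSPOAP1-AS1, whose reads could be split with it. LEF1 was at 1.68, 1.95 and 1.59 CPM with SWTX-143, against 2.08, 2.38 and 3.30 CPM with DMSO (-0.56 ± 0.26; adjusted p = 0.0849). The groups did not overlap for either gene, at levels near 1 to 3 CPM. ZNRF3, the paralogue of RNF43, had a log2 fold change of 0.15 ± 0.12, TCF7 one of 0.13 ± 0.17 and NKD1, an inhibitor that binds Dishevelled, one of -0.02 ± 0.29. TCF7 turned to -0.05 without SWTX-143 replicate 1. LGR5 held 4 counts with SWTX-143 and 1 with DMSO and was not tested. CTNNB1 itself was at 382 ± 12 CPM with SWTX-143 and 373 ± 9.1 CPM with DMSO (0.03 ± 0.04; adjusted p = 0.62). With upper-quartile scaling or library size alone the called members split into 9 higher and 9 lower, where LGR4, FZD2 and FZD3 were gained and FZD8 was lost.

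The same question was asked in ACHN. ROR1, WNT5B, FZD2 and WNT7B fell, and edgeR called 0 of the 4 feedback targets tested, with 1, TCF7, at an unadjusted p under 0.05 and 0 by DESeq2. Of 24 members tested 8 were called, 1 higher and 7 lower, which is 33.3%, where 17.8% of all 13483 tested genes were called, 8.43% of them higher and 9.37% lower. The median log2 fold change of the tested members was -0.01, and that of all genes was 0.00. The split depended on the scaling. Upper-quartile scaling and library size alone gave 4 higher and 5 lower, with LGR4, AXIN1 and FZD5 gained and DKK3 and FZD9 lost, and the joint fit of all 12 libraries also gave 4 higher and 5 lower. The 7 lower were 4 without DMSO replicate 3 or SWTX-143 replicate 3. The 1 higher was 2 without DMSO replicate 1 or SWTX-143 replicate 3, 3 without SWTX-143 replicate 2, and 0 without DMSO replicate 3 or SWTX-143 replicate 1.

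WNT5B, the main ligand of ACHN, was at 31.0, 31.0 and 28.0 CPM with SWTX-143, against 37.8, 38.6 and 37.2 CPM with DMSO (-0.35 ± 0.07; adjusted p = 0.00011), with no overlap. It still made up 60.5% ± 2.2 of the ligand level per length with SWTX-143, against 63.4% ± 0.36 with DMSO (SD, n = 3 each). WNT7B was low, at 1.01, 0.847 and 0.612 CPM with SWTX-143, against 1.83, 1.39 and 1.91 CPM with DMSO (-1.06 ± 0.33; adjusted p = 0.0162). Its call ended without DMSO replicate 1 (adjusted p = 0.0539), DMSO replicate 3 (0.0781) or SWTX-143 replicate 3 (0.0907). WNT3 (-0.14 ± 0.09) and WNT2B (-0.11 ± 0.12) were not called.

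ROR1 was the most clearly changed receptor, at 33.9, 33.3 and 30.7 CPM with SWTX-143, against 49.3, 43.4 and 43.1 CPM with DMSO. The groups did not overlap, and the level was 1.40-fold lower (log2 -0.49 ± 0.07; adjusted p = 1.45e-07). FZD2, the most abundant Frizzled gene of ACHN, was at 51.9, 58.1 and 52.0 CPM with SWTX-143, against 66.98, 62.5 and 66.6 CPM with DMSO (-0.29 ± 0.06; adjusted p = 9.58e-05), again with no overlap. LRP6 was at 86.8, 88.1 and 91.4 CPM with SWTX-143, against 97.2, 107 and 96.0 CPM with DMSO (-0.19 ± 0.05; adjusted p = 0.00408), and the call ended without DMSO replicate 2 (0.103) and in the joint fit (0.103).

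The other called receptors were close to the limit. FZD9 was at 1.01, 1.04 and 0.350 CPM with SWTX-143, against 1.28, 2.05 and 1.39 CPM with DMSO (-0.98 ± 0.35; adjusted p = 0.045). Its call ended without DMSO replicate 2 (0.256) or 3 (0.0593) and without SWTX-143 replicate 1 (0.0541) or 3 (0.274; log2 -0.63). FZD4 was at 14.0, 12.7 and 14.6 CPM with SWTX-143, against 10.7, 11.7 and 10.9 CPM with DMSO (0.30 ± 0.11; adjusted p = 0.0451), and it was the 1 member called higher. Of the 6 fits that left out a library, the 1 without SWTX-143 replicate 2 kept the call on FZD4, and the other 5 gave adjusted p of 0.0515 to 0.157. The FZD4 call also ended with DESeq2 (0.240), with the replicate number as a block (0.0605) and with no filter (0.052). FZD4 overlaps PRSS23, a far more abundant gene on the opposite strand that was not called in ACHN (-0.08 ± 0.04), and their reads cannot be told apart. In H226 PRSS23 was called lower (-0.24 ± 0.04), and its part in the FZD4 values of either line was not tested.

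**Figure D3:**
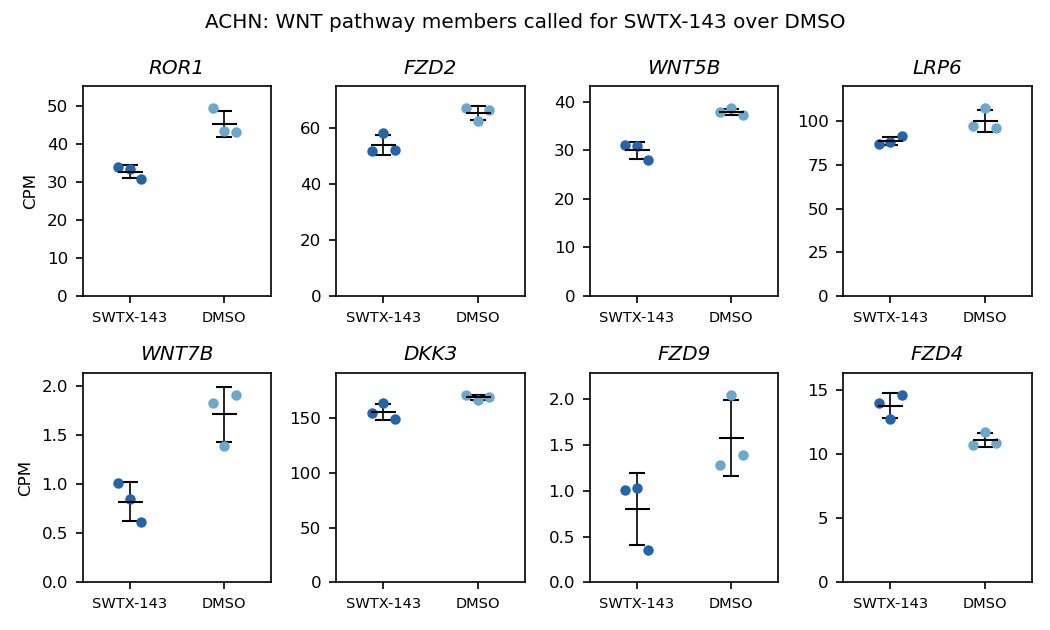
Level in CPM, on axes from 0, of the 8 members called in ACHN, with SWTX-143 on the left and DMSO on the right of each panel. Points are libraries, and lines are the mean with SD of 3 libraries. ROR1, FZD2 and WNT5B fell with no overlap of the groups, and FZD4 was higher.

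DKK3, the main antagonist transcript of ACHN, was at 155, 164 and 149 CPM with SWTX-143, against 171, 166 and 169.6 CPM with DMSO (-0.13 ± 0.04; adjusted p = 0.017). That call ended without SWTX-143 replicate 1 (0.0657) or 3 (0.107) and without DMSO replicate 3 (0.0661), and with DESeq2 (0.0585). SFRP4 was not called (0.16 ± 0.15). Of the feedback targets, TCF7 was at 4.98, 5.46 and 3.59 CPM with SWTX-143, against 3.21, 2.88 and 3.73 CPM with DMSO (0.49 ± 0.19; adjusted p = 0.0695), and the groups overlapped. It was called without SWTX-143 replicate 3 (adjusted p = 0.0221). AXIN2 was low and spread widely, at 2.45, 1.04 and 2.89 CPM with SWTX-143, against 1.47, 2.42 and 1.82 CPM with DMSO (0.16 ± 0.28). LEF1 (0.09 ± 0.15) and ZNRF3 (0.08 ± 0.07) were not called, and neither was CTNNB1 (0.04 ± 0.04). NOTUM, NKD1, RNF43 and LGR5 did not pass the filter in ACHN.

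Set side by side, 22 members were tested in both lines, 13 in H226 alone, 2 in ACHN alone and 15 in neither. ROR1, WNT5B and WNT7B were called lower with SWTX-143 in both lines. These 3 of 22 were 13.6%, where 5.93% of the 12333 genes tested in both lines were called lower in both. The WNT7B part was weak, since DESeq2 did not call it in H226 (adjusted p = 0.0733) and gave it no adjusted p in ACHN. Its edgeR call also ended in each line without certain single libraries, as given above. DESeq2 kept the calls on ROR1 and WNT5B in both lines. By edgeR 0 members were higher in both, against 4.35% of all genes, and 0 were called in opposite directions, against 0.989%. At an unadjusted p under 0.05 there were 2 members of each kind, and DESeq2 called 0 of each. Another 7 were called in H226 and tested without a call in ACHN (31.8%, against 29.5% of all genes), and 4 the reverse (18.2%, against 6.49%). These 4 were DKK3, FZD2, FZD4 and LRP6. The calls on DKK3, FZD4 and LRP6 ended in some of the alternatives given above, and that on FZD2 did not. Whether such an effect differs needs its own test, and the contrast of the effect in H226 minus the effect in ACHN called 7 of 37 members, 3 higher and 4 lower. That is 18.9%, where 15.6% of 14664 genes were called, 5.89% of them higher and 9.70% lower.

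WNT5B fell more in H226 than in ACHN, with a log2 difference of the effects of -0.67 ± 0.13 (adjusted p = 5.40e-05). FZD1 had one of -0.65 ± 0.09 (adjusted p = 5.00e-09), since its level in ACHN was 57.1 ± 0.62 CPM with SWTX-143 and 57.5 ± 0.50 CPM with DMSO. AXIN1 had one of -0.49 ± 0.08 (adjusted p = 2.03e-06). Its level in ACHN was 74.5 ± 4.8 CPM with SWTX-143 and 66.9 ± 2.2 CPM with DMSO, which was not called on its own. FZD2 (0.40 ± 0.08), WNT2B (0.40 ± 0.13) and FZD4 (-0.41 ± 0.11) also differed, the last 2 with the overlapping genes named above. The difference for WNT2B was not called without ACHN DMSO replicate 3 (adjusted p = 0.11) or ACHN SWTX-143 replicate 2 (0.0985). ROR2 was called as well (3.93 ± 1.42; adjusted p = 0.0459), but that value rested on 6 counts in ACHN with DMSO against 0 with SWTX-143, and its call ended in 8 of 12 fits without a library, among them that without ACHN DMSO replicate 3 (0.238). For ROR1 the difference was -0.25 ± 0.09 and missed the limit (adjusted p = 0.0608). For WNT7B it was 0.79 ± 0.33 (0.0922), for AXIN2 0.35 ± 0.29 and for LRP5 -0.16 ± 0.08. For LRP6, called lower in ACHN and not in H226, it was 0.003 ± 0.12 and was not called.

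**Figure D4:**
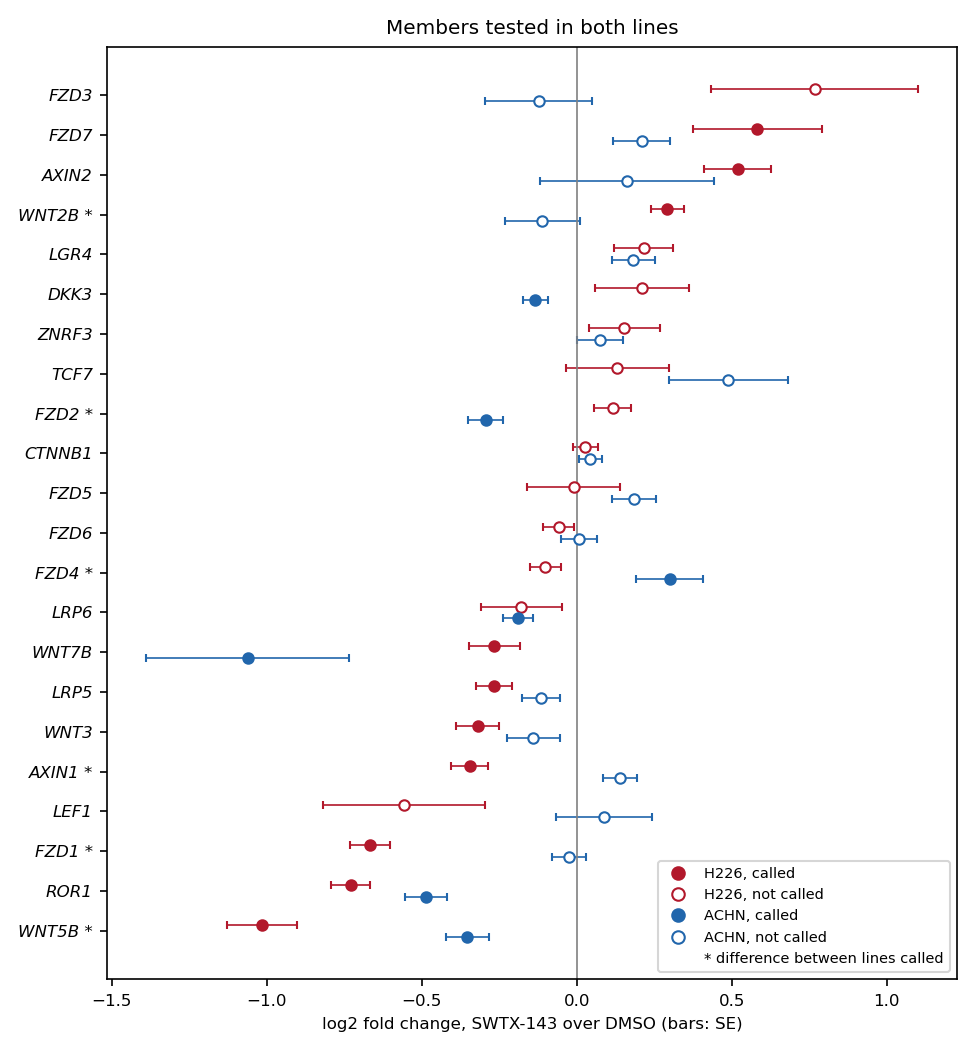
Log2 fold change of SWTX-143 over DMSO in H226 (red) and ACHN (blue) for the 22 members tested in both lines, with SE bars. Filled points were called and open points were not, and a star marks a called difference between the lines. ROR1, WNT5B and WNT7B are filled and left of 0 in both lines.

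Promoter sequence was read for the members that RefSeq (GRCh38.p14) gave a start for, 34 of the 52, in 39 windows of the 250 bases before each start. The letters GGAATG, the core of the element that TEAD factors bind, and CTTTGA or CTTTGT, the core bound by TCF and LEF factors, were searched on both strands. The first stood in 2 of 39 member windows (5.13%), against 11.9% of all 35116 windows, and the second in 7 (17.9%), against 22.8%. The member windows had a median GC content of 69.2%, against 58.0% over all, and its part in these shares was not tested. Windows of 3 fallen genes are shown, namely DKK1, the 1 called member that held the TEAD letters, and ROR1 and WNT5B, which fell in both lines and held neither in these windows. The DKK1 window (chr10:52314031-52314280, plus strand) overlaps an exon of the antisense gene PRKG1-AS1. The ROR1 window lies at chr1:63773767-63774016 (plus strand), and that of WNT5B, at chr12:1616806-1617055 (plus strand), lies before its upstream start. Capitals mark the searched letters and all else is lower case.
DKK1: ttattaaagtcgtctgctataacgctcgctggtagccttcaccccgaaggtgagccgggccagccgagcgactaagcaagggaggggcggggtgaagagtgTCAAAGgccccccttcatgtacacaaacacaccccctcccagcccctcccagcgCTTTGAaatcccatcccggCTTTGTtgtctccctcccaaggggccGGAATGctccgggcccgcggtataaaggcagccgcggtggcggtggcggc
ROR1: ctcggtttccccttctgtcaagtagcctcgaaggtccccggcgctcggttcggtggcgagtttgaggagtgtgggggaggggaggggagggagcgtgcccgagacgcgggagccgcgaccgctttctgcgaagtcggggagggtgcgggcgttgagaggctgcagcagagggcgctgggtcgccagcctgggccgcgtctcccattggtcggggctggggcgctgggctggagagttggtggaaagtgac
WNT5B: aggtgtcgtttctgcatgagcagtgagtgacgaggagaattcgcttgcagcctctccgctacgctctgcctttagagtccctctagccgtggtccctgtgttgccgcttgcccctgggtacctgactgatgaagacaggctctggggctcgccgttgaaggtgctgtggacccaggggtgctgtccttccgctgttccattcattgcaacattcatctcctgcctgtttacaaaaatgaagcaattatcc
In the DKK1 window the TEAD letters lie 50 to 45 bases before the start, and the TCF and LEF letters lie 149 to 144, 95 to 90 and 76 to 71 bases before it. A match describes letters, not a bound site, and windows this short leave out distant elements.

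Beyond these members, 70 other genes of the pathway were read from lists of ligand release, R-spondins and receptor partners, other secreted antagonists, the destruction complex with Dishevelled, nuclear partners, planar polarity and other reported targets. In H226 13 of 54 tested were higher and 13 lower (48.1%, against 40.7% of all genes). In ACHN 7 of 54 were higher and 8 lower (27.8%, against 17.8%), with 5 lower without DMSO replicate 2 or SWTX-143 replicate 3 and 4 higher without DMSO replicate 3. The 6 other secreted antagonists were under 1 CPM in both lines, and WIF1 was at 0.

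Of the ligand release genes, TRABD2B, a membrane protease that cleaves WNT proteins, rose in both lines, to 38.3 ± 1.2 CPM with SWTX-143 against 29.9 ± 1.5 CPM with DMSO in H226 (0.35 ± 0.07; adjusted p = 6.28e-05) and to 25.6 ± 2.3 against 16.4 ± 0.86 CPM in ACHN (0.63 ± 0.09; adjusted p = 1.55e-07). In ACHN its paralogue TRABD2A (0.22 ± 0.07) and the WNT carrier WLS (0.23 ± 0.05) also rose. RSPO1, a secreted enhancer of WNT signalling that binds LGR receptors, fell in H226 to 5.22 ± 0.59 CPM with SWTX-143 against 9.89 ± 1.7 CPM with DMSO (-0.93 ± 0.15; adjusted p = 8.30e-07), and PTK7, a co-receptor of the polarity branch, rose (0.20 ± 0.05). In ACHN, TSPAN12, a Frizzled co-factor, fell (-0.33 ± 0.10), and KREMEN1, a DKK1 receptor, rose near the limit (0.30 ± 0.11; adjusted p = 0.0426). The TRABD2A call ended without DMSO replicate 3 (0.267; log2 0.14) or SWTX-143 replicate 2 (0.143), and the TSPAN12 call without DMSO replicate 1 (0.0936) or SWTX-143 replicate 1 (0.0562). The KREMEN1 call ended in 5 of 6 fits without a library (0.0626 to 0.209).

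In the destruction complex 4 of 15 tested genes were called in H226 (26.7%, against 40.7% of all genes), where TNKS (0.23 ± 0.05), whose product marks AXIN for degradation, and APC (0.20 ± 0.07) rose, and GSK3A (-0.20 ± 0.05) and AMER1 (-0.35 ± 0.13) fell. The APC call ended without DMSO replicate 2 (0.395; log2 0.09) or SWTX-143 replicate 1 (0.0678). The AMER1 call ended without DMSO replicate 1 (0.128) or 3 (0.0586) and without SWTX-143 replicate 1 (0.0637) or 2 (0.0699). In ACHN DVL1, 1 of the Dishevelled genes, fell (-0.20 ± 0.06), a call that ended without SWTX-143 replicate 3 (0.0972).

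Nuclear partners called in H226 included BCL9L (0.35 ± 0.04), a coactivator of beta-catenin, which rose, and CTNNBIP1 (-0.35 ± 0.08), an inhibitor of the beta-catenin and TCF contact, TCF7L1 (-0.54 ± 0.14) and PYGO1 (-0.44 ± 0.15), which fell. The PYGO1 call ended without DMSO replicate 2 (0.189; log2 -0.28) or SWTX-143 replicate 1 (0.071) or 2 (0.053). In ACHN BCL9 rose (0.22 ± 0.06), a call that ended without DMSO replicate 3 (0.0505). TLE3, a corepressor, fell there (-0.22 ± 0.08; adjusted p = 0.0482), and its call ended without DMSO replicate 1 (0.0511) or 2 (0.375; log2 -0.13) and without SWTX-143 replicate 2 (0.132) or 3 (0.162).

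In the planar polarity branch, DAAM2, a formin that acts with Dishevelled, fell in H226 to 8.07 ± 0.72 CPM with SWTX-143 against 15.1 ± 0.84 CPM with DMSO (-0.92 ± 0.12; adjusted p = 4.93e-09). DAAM1 (-0.30 ± 0.06) and SCRIB (-0.30 ± 0.05) fell too, and PRICKLE1 rose (0.49 ± 0.11). In ACHN the polarity genes CELSR1 (-0.18 ± 0.04) and PRICKLE2 (-0.23 ± 0.07) fell, the second not without DMSO replicate 2 (0.0664).

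Among other reported targets, 8 of 9 tested were called in H226, 4 in each direction (88.9%, against 40.7% of all genes), and 5 of 7 in ACHN (71.4%, against 17.8%). In H226 BAMBI, a decoy receptor of the TGF-beta family, fell to 28.0 ± 1.8 CPM with SWTX-143 against 56.5 ± 1.9 CPM with DMSO (-1.02 ± 0.07; adjusted p = 8.98e-19). CCND1 (-0.56 ± 0.04) and MYC (-0.45 ± 0.05) also fell, and SOX4 rose (0.60 ± 0.06). In ACHN FGF18 fell to 2.08 ± 0.56 CPM with SWTX-143 against 7.08 ± 0.50 CPM with DMSO (-1.79 ± 0.19; adjusted p = 1.225e-10), TNFRSF19 fell (-0.30 ± 0.04), and CD44 (0.23 ± 0.03) and SOX4 (0.26 ± 0.05) rose. MYC, CCND1 and CD44 answer to many pathways besides WNT. Of the other pathway calls named here, DESeq2 ended those on APC, AMER1 and PYGO1 in H226 (0.123 to 0.151) and on TRABD2A, TSPAN12, KREMEN1, DVL1, TLE3 and PRICKLE2 in ACHN (0.0579 to 0.224).

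**Figure D5:**
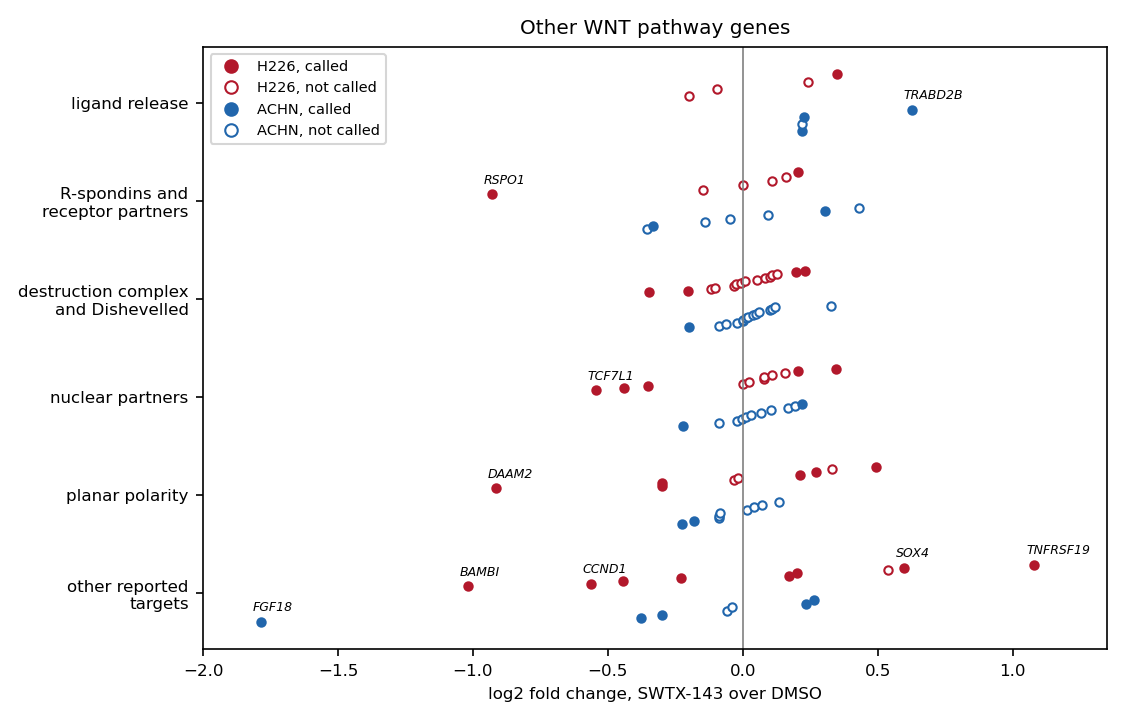
Log2 fold change of SWTX-143 over DMSO in H226 (red) and ACHN (blue) for the other WNT pathway genes tested, by list. Filled points were called and open points were not, and called genes past 0.5 in either direction are named. The lists hold called genes on both sides of 0, except ligand release, where those called are higher, and the other secreted antagonists have none called and are not drawn.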

How the data were processed

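The data were 12 poly(A) RNA libraries, 3 per cell line and treatment, read on a BGISEQ-500 per the labels' protocols. The authors deposited 1 table per line of raw read counts per gene symbol, taken as whole reads because each value was a whole number and library totals differed. Per the submitters' processing notes, the tools were STAR 2.6.1d, cutadapt and FastQC, with the human build hg19. Which program made the counts, with which annotation and strand setting, is not given in the sources used here, so reads of overlapping genes cannot be told apart, and overlaps were looked up for the 52 members and not for the other pathway genes.

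Each line was fitted alone in edgeR 4.0.16 (R 4.3.3) with filterByExpr, TMM scaling and robust quasi-likelihood F tests, with p-values adjusted over every tested gene by the Benjamini-Hochberg method. A joint fit of the 12 libraries gave the difference between lines. A standard error is the log2 fold change divided by the root of F. Exon lengths and gene overlaps came from GENCODE 29 (GRCh38), with no coordinate of the counts used. Over the 12 pairs of replicates, counts differed by more than sampling noise, so no library was a copy. Simulated counts held 100 genes changed by a log2 of 1 and 100 changed by 0.5. Of these, 99% and 84% were recovered in H226 (13486 genes) and 100% and 87% in ACHN (13479 genes). For the difference (14656 genes) the shares were 96% and 66%. The changed genes were drawn from those above a minimum expected count in every library, and the same spread was set for all genes. These shares therefore do not cover members with few counts.

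The members and lists were chosen with earlier results of these data known. Named with values are each member called in a line at 1 CPM or more in either group, for 8 feedback targets where tested, for members whose effect differed between lines, and for the 3 most abundant ligands, Frizzled receptors and antagonists of each line. Of each other list, up to 4 called genes per line with the smallest p are named. Alternatives were other scalings, no filter, DESeq2, the replicate number as a block, a joint fit and leaving out each library.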

Additional observations from a re-analysis of the deposited data

Results flagged for a closer look

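Each of these genes had an effect of SWTX-143 that differed between the lines by the test of the difference itself (log2 effect in H226 minus log2 effect in ACHN, edgeR, adjusted over 14664 genes). Among the members, FZD1 had a value of -0.65, with an effect of -0.67 in H226 and -0.02 in ACHN. WNT5B had a value of -0.67, and it fell in both lines. AXIN1 had a value of -0.49, with effects of -0.35 in H226 and 0.14 in ACHN. FZD2 had a value of 0.40, with effects of 0.12 in H226 and -0.29 in ACHN. FZD4 had a value of -0.41, with effects of -0.10 and 0.30. WNT2B had a value of 0.40, with effects of 0.29 and -0.11. ROR2 had a value of 3.93, which rests on 6 counts in ACHN with DMSO and 0 with SWTX-143. When the fit kept the genes that averaged 1 CPM or more in both lines, a choice made after the data were seen, ROR2 was not tested, and the other 6 were called with the same sign.

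Of the other pathway genes, the difference was positive for FGF18 (1.98), TNFRSF19 (1.37), PRICKLE1 (0.58), CELSR1 (0.39), SOX4 (0.33), TLE3 (0.29) and BCL9L (0.24). It was negative for CCND1 (-0.53), CTNNBIP1 (-0.52), WLS (-0.43), MYC (-0.39), DAAM1 (-0.37) and SCRIB (-0.22). FGF18 was at 145 ± 2.1 CPM with SWTX-143 and 126 ± 7.5 CPM with DMSO in H226 (0.20 ± 0.05), where it rose, and it fell in ACHN. TNFRSF19, a receptor of the tumour necrosis factor family, rose to 8.71 ± 0.95 CPM with SWTX-143 against 4.06 ± 0.32 CPM with DMSO in H226 (1.08 ± 0.16), and fell to 117 ± 4.0 against 143 ± 4.9 CPM in ACHN. DESeq2 did not call the difference for CTNNBIP1 (adjusted p = 0.0875), DAAM1 (0.0691), TLE3 (0.0896), SCRIB (0.0607) or ROR2 (0.0729), and leaving out 1 library ended each of these calls in some fits. For CTNNBIP1 and DAAM1 these were the fits without ACHN DMSO replicate 1, ACHN SWTX-143 replicate 1, H226 DMSO replicate 2 or H226 SWTX-143 replicate 2 (adjusted p of 0.0506 to 0.144). For TLE3 they were those without ACHN DMSO replicate 2, ACHN SWTX-143 replicate 2 or 3, or H226 DMSO replicate 1 (0.06 to 0.217). For SCRIB they were those without ACHN SWTX-143 replicate 1, H226 DMSO replicate 2 (0.217; log2 -0.14) or 3, or H226 SWTX-143 replicate 1 or 2. The SCRIB call also ended with upper-quartile scaling (0.0598) and with no filter (0.0649).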

How the results depend on the processing

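No call of a member changed direction under any alternative run. The number of members called higher in ACHN, 1, was 4 with upper-quartile scaling, 4 with library size alone, 4 in the joint fit, 0 with DESeq2 and 0 with the replicate block, and 0 to 3 without 1 library. The 7 called lower in ACHN were 4 with DESeq2, which gave no adjusted p for WNT7B and FZD9, and 4 to 7 without 1 library. DESeq2 left 3 of the 8 other pathway genes lower in ACHN, and leaving out 1 library gave 5 to 8 of these and 4 to 7 of the 7 higher. Members with a positive difference of effects, H226 minus ACHN, numbered 3, and 1 to 4 without 1 library, with 1 without ACHN DMSO replicate 3 or ACHN SWTX-143 replicate 2. The counts for H226 and for the DMSO level stayed within 1.5 times.

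Values near 0 that changed sign, none of them called, were NKD1 in H226 (-0.02, against 0.029 with upper-quartile scaling, 0.020 with library size alone, and -0.24 to 0.30 without 1 library), TCF7 in H226 (-0.052 to 0.25), AXIN2 in ACHN (-0.11 to 0.47) and LEF1 in ACHN (-0.035 to 0.24). FZD1 under DMSO (0.01) was -0.15 with library size alone, a value that was called there, and -0.012 to 0.068 without 1 library. The cause was not tested. Across all genes DESeq2 called 3762 in H226, against 5486 in edgeR, and 1417 in ACHN, against 2401.

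Replicate numbers recur in every group. Deviations of samples with the same number had correlations of -0.03 to 0.06 in H226 and -0.08 to -0.02 in ACHN, all under 0.1. Samples with different numbers gave -0.12 to 0.09 in H226 and -0.05 to 0.098 in ACHN. Same-numbered samples were thus no more alike by this measure. It cannot tell if they shared a day or a plate, which the labels do not state. With the number as a replicate block, H226 members called were 6 higher and 10 lower, as without it, and ACHN members were 0 higher and 7 lower. Genes under about 1 CPM rest on few counts, and the test could not show small changes there.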

Other observations

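SFRP5, a secreted decoy for WNT proteins, did not pass the filter and is named here after its values were seen. It held 14, 15 and 9 counts in H226 with SWTX-143, against 5, 5 and 0 counts with DMSO, and it was called higher with DESeq2 and with no filter. WNT7A held 0, 1 and 2 counts in H226 with SWTX-143, against 3, 5 and 6 counts with DMSO, and it was called lower with no filter. Neither was counted above.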
